A study of Mus musculus with 8 samples.

Results

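Wild type epicardial cultures of mouse embryos were compared, 1 pool given PDGF-BB for 24 h and 1 pool given it for 12 h. They are 2 of the 8 arrays of the series, chosen by their titles, and no array without PDGF-BB enters the difference. Hearts were taken at E12.5 from mice of a mixed C57 background, epicardial cells grew out of them for 3 days, and the hearts were then taken away and the cells kept for 2 further days. PDGF-BB was added at 20 ng/ml either 24 h or 12 h before RNA was taken, so both cultures were harvested at the same age and differ in the length of exposure. Each array held RNA pooled from at least 3 cultures. There was 1 pool a side, so the differences have no replicate error and no test. A culture of wild type genotype called the control and another called vehicle, neither given a growth factor, had 1 array each and are given as the untreated background. The labels name the control culture's source as the whole heart and its treatment as vehicle, and it was taken as a culture from its title. The other 4 arrays, of a receptor knockout culture, a culture with 3 growth factors and 2 hearts, enter the normalization and the choice of probe but not the comparison itself.

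The epicardium is the mesothelial sheet over the heart, from which cells leave by epithelial to mesenchymal transition (EMT) and become fibroblasts and vascular mural cells. PDGF-BB is a dimer of PDGF B chains that binds both PDGF receptors, Pdgfra and Pdgfrb. The receptors are tyrosine kinases that signal through the ERK and PI3K pathways to immediate-early genes, the cell cycle and the actin cytoskeleton, and ERK induces its own inhibitors. Early transcripts of that response are known to peak soon after the ligand is added, so a comparison of 24 h with 12 h addresses the later course of exposure.

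Levels are log2 of background-corrected, quantile-normalized bead intensity, and a difference is the 24 h level minus the 12 h level, so 1 on this scale is 2-fold. Genes with a detection p-value under 0.01 on at least 1 of both arrays count as measured, which held for 9555 of the 19057 genes with a named probe. Detected probes numbered 16022 at 24 h and 16201 at 12 h, against 14557 to 16661 over all 8 arrays. Genes that differed by at least 2-fold, with detection on the brighter array, count as called. Where the dimmer array did not detect the gene, the fold is a lower bound, taken against the dimmest detected probe there or the gene's own level, whichever was higher. Such genes were 18 of the calls. The call rests on the levels themselves, so it stands even where the bound is under 2-fold, as for several genes below. A difference given for a gene not detected on the dimmer array is likewise that of the levels and partly reflects the detection limit. The median of the detected probes lay at 5.38 times that of undetected probes at 24 h and 5.31 times at 12 h.

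The cultures of 24 h and 12 h were close to each other. By the 2-fold rule 35 of 9555 measured genes were called (0.366%), 11 higher at 24 h (0.115%) and 24 lower (0.251%). At 1.5-fold, 98 were higher (1.03%) and 161 lower (1.68%), 259 in all (2.71%). The median difference was -0.01, 47.5% of genes lay above 0, and 95% of genes lay between -0.51 and 0.46. The correlation of both arrays across genes was 0.993, where genes are not independent replicates. In 3212 genes at least 2 probes were detected on both arrays. The SD of the gap between the differences of the 2 brightest, divided by the square root of 2, was 0.159. This SD of a single probe measures the array and not the spread between pools.

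Between the untreated vehicle and control cultures, which share no array with the comparison above, 1031 of 9757 measured genes passed the 2-fold rule (10.6%), 326 higher in the vehicle culture (3.34%) and 705 lower (7.23%), and 95% of genes lay between -1.50 and 1.10. The vehicle array lies in another of the submitters' normalization sets than the control, 24 h and 12 h arrays, and its highest raw intensity was 26937, against 53266 on the control array. The part of this in the untreated difference was not tested. Of the 35 genes called, 20 were also called between the untreated cultures, which is 57.1% of the 35 and 1.94% of the 1031. In 16 of the 35 the untreated difference was the larger, and in 76.9% of all measured genes. The 35 were selected for a large difference, which by itself lowers their share, so nothing is concluded from it.

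**Figure D1:**
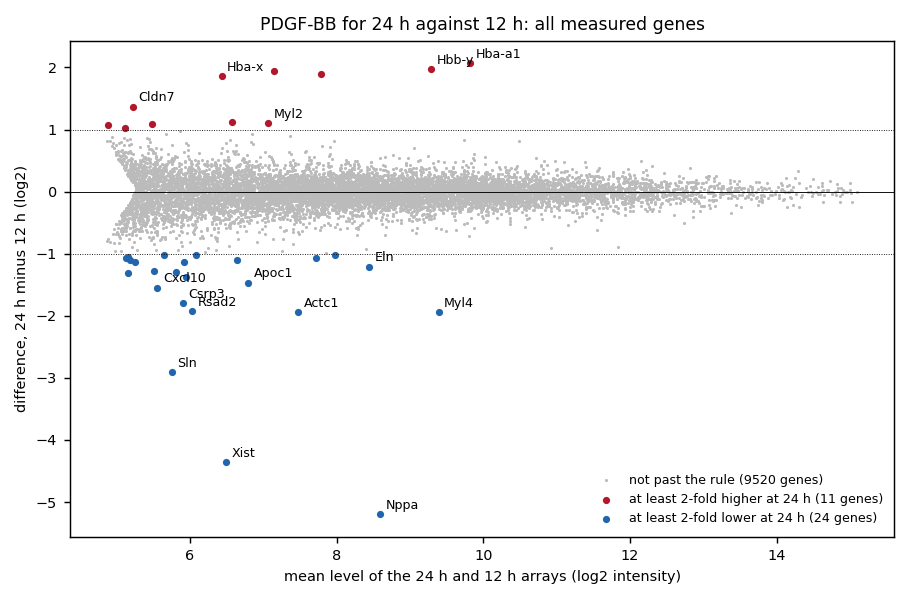
Difference between 24 h and 12 h of PDGF-BB (vertical, log2) against the mean level of both arrays (horizontal, log2 intensity) for 9555 measured genes, 1 pool per array. Red points are the 11 genes at least 2-fold higher at 24 h, blue points the 24 at least 2-fold lower, dotted lines mark 2-fold, and Nppa at -5.19 lies farthest from 0.

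Heart muscle genes held the largest single difference, that of Nppa, and most of their calls were lower at 24 h. Of 15 measured genes of the cardiomyocyte list 6 fell and 1 rose past 2-fold at 24 h, where 0.251% of all measured genes fell and 0.115% rose. Nppa, the atrial natriuretic peptide, had a level of 6.0 at 24 h and 11.19 at 12 h, against 8.23 in the control and 5.92 in the vehicle culture. It was 36.6-fold lower at 24 h, where it stood next to the vehicle culture, while the 12 h pool was the highest of these 4 cultures.

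Sln, sarcolipin, which inhibits the calcium pump of the sarcoplasmic reticulum in atrial muscle, was 4.30 at 24 h and not detected, and 7.21 at 12 h. It was not detected in the control or vehicle culture (4.33 and 4.34), so its level at 12 h stood alone among these arrays, at least 3.81-fold higher than at 24 h. Mybphl, a myosin-binding protein of the atria, was 4.50 at 24 h and not detected, and 5.81 at 12 h, a fall of at least 1.44-fold, and it too was not detected in either untreated culture. Neither gene belongs to the cardiomyocyte list.

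Genes of the sarcomere itself also fell. Myl4, the atrial essential light chain, was 8.42 at 24 h and 10.36 at 12 h, a difference of -1.94. Its 24 h level lay beside those of the control (8.47) and vehicle (8.09) cultures, and only the 12 h pool was high. Actc1, cardiac alpha-actin, was 6.51 at 24 h and 8.45 at 12 h, with 7.37 in the control and 5.67 in the vehicle culture, so the 12 h pool was again the highest of these 4 cultures.

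Csrp3, the muscle LIM protein of the Z-disc, was 5.0 and not detected at 24 h and 6.80 at 12 h, at least 2.87-fold lower, and its other detected probe differed by -0.54. Myh6, the alpha myosin heavy chain, was 5.25 and not detected at 24 h and 6.63 at 12 h, at least 2.54-fold lower. Tnnc1, cardiac troponin C, was 7.46 at 24 h and 8.48 at 12 h, a difference of -1.02 that lies at the threshold. In the control and vehicle cultures Csrp3 was 5.40 and 4.58, Myh6 5.71 and 4.45, and Tnnc1 7.74 and 7.55, all below their 12 h level.

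Heart muscle genes did not all move one way. Myl2, the ventricular regulatory light chain, rose to 7.62 at 24 h, against 6.52 at 12 h, and was 8.37 in the control and 7.21 in the vehicle culture, so here the 12 h pool was the lowest. Myl7, the atrial regulatory light chain, was 11.68 at 24 h and 11.43 at 12 h, a difference of 0.25 that is not past either rule. Nppb, the B-type natriuretic peptide, was 9.25 at 24 h and 8.70 at 12 h (0.55), and Myl3, the ventricular essential light chain, 6.23 at 24 h and 5.87 at 12 h (0.36). These last 3 genes were chosen after their values were seen.

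Of the 22 members of the list with a named probe 12 were detected at 24 h and 15 at 12 h, with 15 in the control and 11 in the vehicle culture. The 22 levels summed on the linear scale came to 6846 at 24 h and 10023 at 12 h, against 6864 in the control and 8253 in the vehicle culture. Such a sum weighs bright genes most, and the falls of Nppa and Myl4 together were as large as that of the sum. Myh7, Tnni3, Ttn, Pln, Ryr2 and the cardiac factors Nkx2-5 and Tbx5, which also define heart muscle, were not detected on any of these 4 arrays. The list's median difference was -0.26, beside -0.01 over all measured genes. The same genes had a median of -0.81 for the vehicle minus the control culture. In RNA from a whole culture, fewer cells of a type and less RNA per cell cannot be told apart. Without background correction the calls of Myh6 (-0.88), Tnnc1 (-0.90), Mybphl (-0.83) and Myl2 (0.87) fell short of 2-fold.

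The start regions of heart muscle genes are shown because the CArG box, the site of serum response factor, is known from several of them. The motif was searched on both strands of RefSeq windows (build GRCm38.p6) that run from 250 bases before to 50 after the start of transcription. A match was found in 3 of 13 measured cardiomyocyte genes with a window (23.1%), against 1.78% of 7799 measured genes. Only 1 of these 3 was called. Actc1 lies on the minus strand at chr2:114052826-114053125 with its match at -47, counted from the start site. Myl3 lies on the plus strand at chr9:110763428-110763727 with its match at -85, and Myl7 on the minus strand at chr11:5898733-5899032 with its match at -61. The matching bases are in capitals.
Actc1: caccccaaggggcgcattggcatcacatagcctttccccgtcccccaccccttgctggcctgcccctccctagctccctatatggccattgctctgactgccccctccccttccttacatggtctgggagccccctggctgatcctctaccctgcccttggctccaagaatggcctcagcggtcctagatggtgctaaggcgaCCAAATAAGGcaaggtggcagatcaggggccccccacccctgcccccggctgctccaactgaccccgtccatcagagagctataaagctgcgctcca
Myl3: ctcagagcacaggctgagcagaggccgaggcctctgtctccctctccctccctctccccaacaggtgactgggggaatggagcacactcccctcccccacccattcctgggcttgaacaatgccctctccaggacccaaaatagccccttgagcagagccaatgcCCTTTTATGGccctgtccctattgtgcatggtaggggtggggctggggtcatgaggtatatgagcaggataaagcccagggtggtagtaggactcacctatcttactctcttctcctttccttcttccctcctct
Myl7: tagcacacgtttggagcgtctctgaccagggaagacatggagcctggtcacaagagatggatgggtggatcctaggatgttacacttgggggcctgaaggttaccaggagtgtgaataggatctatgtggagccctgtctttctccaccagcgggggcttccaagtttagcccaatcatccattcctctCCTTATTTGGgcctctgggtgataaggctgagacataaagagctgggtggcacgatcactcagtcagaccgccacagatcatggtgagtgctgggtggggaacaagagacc
Actc1 fell past 2-fold at 24 h while Myl3 and Myl7 did not move past 1.5-fold. The windows of Nppa, Myl4, Myh6, Csrp3 and Tnnc1, which fell, hold no match in these 300 bases.

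Globin genes made up 5 of the 11 genes higher at 24 h. Hba-a1, adult alpha-globin, was 10.85 at 24 h and 8.79 at 12 h, against 8.97 in the control and 13.01 in the vehicle culture, a 4.19-fold difference. Hbb-y, an embryonic beta-like globin, was 10.27 at 24 h and 8.30 at 12 h, against 8.36 in the control and 12.47 in the vehicle culture. Hba-x, the embryonic alpha-like globin, was 7.36 at 24 h and 5.51 at 12 h, with 5.61 in the control and 9.57 in the vehicle culture. For all 3 genes the vehicle culture was highest, the 24 h pool next, and the 12 h pool and control culture lay lowest and close together.

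The adult beta-globins Hbb-bs (8.73 at 24 h and 6.83 at 12 h) and Hbb-bt (8.12 at 24 h and 6.18 at 12 h) had the same order. The band 3 gene Slc4a1 and Epb42, which build the red cell membrane, were not detected on any of the 4 arrays. The sequences of Hbb-bs and Hbb-bt are nearly identical, so the split of signal between them is uncertain. Of the 5 measured genes of the erythroid list 3 rose and none fell past 2-fold, beside 0.115% and 0.251% of all measured genes, and its median difference was 1.85. Alas2, the erythroid enzyme of heme synthesis, was 5.88 at 24 h and 5.66 at 12 h, and Tfrc, the transferrin receptor, was 10.01 at 24 h and 9.69 at 12 h. Both lay under 1.5-fold, and they were chosen after their values were seen. The linear levels of the 9 erythroid genes with a named probe summed to 4448 at 24 h and 1767 at 12 h, against 1620 in the control and 16194 in the vehicle culture.

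Sex-linked transcripts also differed between the pools. Xist, the non-coding RNA made from the inactive X chromosome, was 4.32 and not detected at 24 h and 8.67 at 12 h, at least 10.5-fold lower, while it was 7.69 in the control and 7.10 in the vehicle culture. Its 3 other detected probes differed by -3.94, -0.96 and -1.0. Of the Y-linked genes, Eif2s3y, a translation initiation factor subunit, was 7.82 at 24 h and 6.92 at 12 h (0.90). Kdm5d, a histone demethylase, was 5.85 at 24 h and 5.06, not detected, at 12 h (0.79). Uty, another demethylase gene, was 5.42 at 24 h and 5.06, not detected, at 12 h (0.36).

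Xist was thus past the 2-fold rule, Eif2s3y and Kdm5d past 1.5-fold, and Uty past neither; the Y-linked genes were chosen after their values were seen. Eif2s3y was 7.95 in the control and 5.79 in the vehicle culture. The labels used here give no sex for the pooled embryos, and the part of embryo sex in the other differences was not tested.

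**Figure D2:**
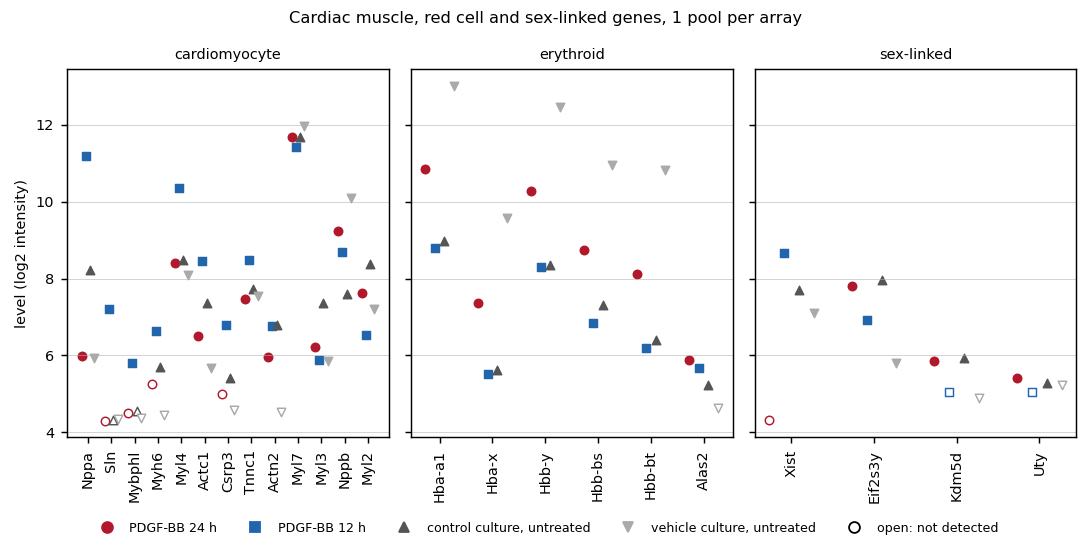
Levels (log2 intensity, vertical) of heart muscle, globin and sex-linked genes on 4 culture arrays, 1 pool each, with open symbols for genes not detected on that array. Nppa, Sln, Myl4 and Actc1 are high at 12 h, the globins stand between the vehicle culture and the others at 24 h, and Xist is not detected at 24 h.

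A group of interferon-inducible genes was lower at 24 h. Type I interferons act through the transcription factors STAT and IRF on a short promoter element, and the induced genes restrict viruses and draw in leukocytes. Of 14 measured genes of the interferon list 3 fell and none rose past 2-fold, beside 0.251% and 0.115% of all measured genes, and 5 were past 1.5-fold lower. Its median difference was -0.17, with 4 of 14 above 0, and the median was -0.24 for the vehicle minus the control culture.

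The promoters of 4 of these genes are printed with the element's core, AAANNGAAA on either strand, in capitals. Rsad2 lies on the minus strand at chr12:26456403-26456702, with matches at -120 and -107 from the start site. Cxcl10 lies on the minus strand at chr5:92348840-92349139, with a match at -212. Ifit3 lies on the plus strand at chr19:34583279-34583578, with matches at -156 and -122, and Isg15 on the minus strand at chr4:156200769-156201068, with 3 overlapping matches at -77, -71 and -65.
Rsad2: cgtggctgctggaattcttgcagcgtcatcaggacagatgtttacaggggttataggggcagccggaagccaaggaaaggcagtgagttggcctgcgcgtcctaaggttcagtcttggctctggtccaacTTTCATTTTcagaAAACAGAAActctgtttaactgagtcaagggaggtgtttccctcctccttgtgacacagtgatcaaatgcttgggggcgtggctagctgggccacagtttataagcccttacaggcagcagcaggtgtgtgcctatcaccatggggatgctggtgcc
Cxcl10: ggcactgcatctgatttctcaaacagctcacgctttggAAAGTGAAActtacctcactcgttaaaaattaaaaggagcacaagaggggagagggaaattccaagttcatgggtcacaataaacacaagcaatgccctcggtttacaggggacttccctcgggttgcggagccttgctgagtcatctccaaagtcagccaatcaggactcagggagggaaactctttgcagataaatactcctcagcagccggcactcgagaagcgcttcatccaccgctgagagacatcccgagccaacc
Ifit3: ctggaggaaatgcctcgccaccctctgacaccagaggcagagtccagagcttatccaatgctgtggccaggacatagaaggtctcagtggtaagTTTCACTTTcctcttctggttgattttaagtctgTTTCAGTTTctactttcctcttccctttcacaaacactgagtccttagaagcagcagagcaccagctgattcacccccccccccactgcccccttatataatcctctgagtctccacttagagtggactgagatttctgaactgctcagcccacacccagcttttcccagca
Isg15: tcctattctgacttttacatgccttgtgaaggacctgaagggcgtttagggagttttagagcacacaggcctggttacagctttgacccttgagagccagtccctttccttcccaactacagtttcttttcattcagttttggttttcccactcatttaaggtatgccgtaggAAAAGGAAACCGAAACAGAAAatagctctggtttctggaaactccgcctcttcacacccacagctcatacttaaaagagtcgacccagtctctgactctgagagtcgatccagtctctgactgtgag
The core was found in 9 of 12 measured interferon list genes with a window (75%), against 9.37% of 7799 measured genes and 10.6% of all 32851 windows in the table. In all genes past 2-fold it was in 5 of 17 lower ones and 2 of 10 higher ones with a window. The list was drawn up from interferon response genes, so the 75% describes the list and not the difference between 24 h and 12 h. Stat2, Irgm1 and Ddx58, which did not fall, also hold a match. Ifit2, which did not fall either, holds none. A match is a description of the letters, and binding was not measured.

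Rsad2, the antiviral enzyme viperin, was 5.06 and not detected at 24 h and 6.99 at 12 h, at least 3.26-fold lower, against 5.55 in the control and 4.77 in the vehicle culture. Ifit3, an interferon-induced antiviral protein, was 6.08 at 24 h and 7.19 at 12 h, a difference of -1.10, with 5.95 in the control and 5.89 in the vehicle culture. Usp18, the protease that removes Isg15 from proteins and damps interferon signalling, was 4.68 and not detected at 24 h and 5.82 at 12 h, at least 1.45-fold lower. For these 3 genes the 12 h pool was the highest of the 4 cultures, and the 24 h level lay nearer to the untreated levels.

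Cxcl10, an interferon-induced chemokine counted in the cytokine list, was 4.78 and not detected at 24 h and 6.33 at 12 h, at least 2.07-fold lower, with 5.33 in the control and 4.54 in the vehicle culture. Oasl2, an oligoadenylate synthetase-like protein, was 5.72 at 24 h and 6.70 at 12 h (-0.97), and Isg15, a ubiquitin-like modifier, was 5.72 at 24 h and 6.37 at 12 h (-0.66). Both passed the 1.5-fold rule and were chosen after their values were seen, and the Oasl2 window holds no match. Other members did not follow. Ifit2, of the same family as Ifit3, was 7.35 at 24 h and 7.23 at 12 h (0.12), and Stat2, Irgm1 and Ddx58 differed by 0.09, 0.10 and 0.28, all chosen after their values were seen. Without background correction Rsad2 stayed past 2-fold (-1.26), while Ifit3 (-0.82), Usp18 (-0.67) and Cxcl10 (-0.93) did not.

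Among cytokines, chemokines and acute phase genes 1 of 18 measured fell past 2-fold, which is Cxcl10, and none rose, beside 0.251% and 0.115% of all measured genes. At 1.5-fold 4 were lower and 1 was higher, beside 1.68% and 1.03%. Lif, a cytokine of the interleukin 6 family, was the higher one, at 7.34 at 24 h and 6.70 at 12 h (0.64). Saa3, an acute phase protein, was 11.40 at 24 h and 12.28 at 12 h (-0.89), with 12.61 in the control and 6.26 in the vehicle culture, so the untreated cultures were far wider apart than both PDGF-BB cultures. Il33, not detected at 24 h, differed by -0.73, at least 1.44-fold, and Cx3cl1, fractalkine, by -0.65. Lif, Saa3, Il33 and Cx3cl1 were chosen after their values were seen.

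Genes of the extracellular matrix and of secreted modulators lay lower at 24 h where they were past a rule. Eln, elastin, was 7.84 at 24 h and 9.05 at 12 h, a 2.31-fold fall, with 9.91 in the control and 7.64 in the vehicle culture, so both levels lie between the untreated ones. It was the 1 call among 18 measured genes of collagen and elastin processing, beside 0.366% of all measured genes. Mfap5, a microfibril protein, was 5.20 and not detected at 24 h and 5.76 at 12 h (-0.56).

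Has2, the main synthase of hyaluronan in the embryonic heart, was 5.36 at 24 h and 6.49 at 12 h, a difference of -1.14, with 6.22 in the control and 5.70 in the vehicle culture. The 24 h pool was thus the lowest of the 4 and the 12 h pool the highest. Of the 13 measured proteoglycan and hyaluronan genes 1 fell and none rose past 2-fold, beside 0.251% and 0.115% of all measured genes. In this list 2 of 13 lay above 0, beside 47.5% of all measured genes, and the median was -0.23. The same genes had a median of -0.30 for the vehicle minus the control culture. Ccn5, a matricellular protein, was 5.16 and not detected at 24 h and 6.45 at 12 h, at least 2.25-fold lower, with 6.43 in the control, and it was the 1 call among 10 measured matricellular genes, beside the same 0.366%. Without background correction Has2 (-0.73) and Ccn5 (-0.80) fell short of 2-fold, while Eln (-1.10) did not.

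The fibrillar collagens lay near 0. None of 15 measured collagen genes passed 1.5-fold in either direction, and Col1a1, chosen after its values were seen, was 13.28 at 24 h and 13.14 at 12 h. Col11a1, a minor fibril collagen, differed most, with 6.26 at 24 h and 5.70 at 12 h (0.57), and Col14a1, which binds the fibril surface, was 6.34 at 24 h and 6.71 at 12 h (-0.37). Of the matrix proteases and inhibitors none of 18 was past 2-fold. Mmp3, stromelysin, was 5.71 at 24 h and 6.40 at 12 h (-0.68), with 2 other probes at -0.93 and -1.02, and Mmp10, a close relative, was 4.88 and not detected at 24 h and 5.33 at 12 h, at least 1.04-fold lower in level.

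Itga11, the integrin subunit that binds fibrillar collagen, was 7.37 at 24 h and 8.35 at 12 h (-0.98), just short of 2-fold, and its other probe differed by -0.72. Itga9 was 6.46 at 24 h and 7.01 at 12 h (-0.55), and the median of the 12 measured integrin genes was 0.05. Among 13 measured secreted Wnt modulators and targets none was past 2-fold, and 3 were past 1.5-fold lower, beside 1.68% of all measured genes. Sfrp2, a secreted Wnt antagonist, was 5.88 at 24 h and 6.83 at 12 h (-0.94), with 8.15 in the control and 5.79 in the vehicle culture, and Dkk3, of the Dickkopf family, was 5.79 at 24 h and 6.70 at 12 h (-0.91).

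Igfbp3, a carrier of insulin-like growth factors, was 7.93 at 24 h and 8.86 at 12 h (-0.92), with its other probe at -0.82. Igfbp2 differed by -0.37, and the median of the 12 measured genes of that axis was -0.02. Of 13 BMP ligands, antagonists and Id genes none was past 1.5-fold. Bmp5 was 4.83 and not detected at 24 h and 5.39 at 12 h (-0.56), and Fst, follistatin, was 6.75 at 24 h and 7.31 at 12 h (-0.55). Of 15 TGF-beta ligands, receptors and targets none was past 2-fold, and the median was -0.05.

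**Figure D3:**
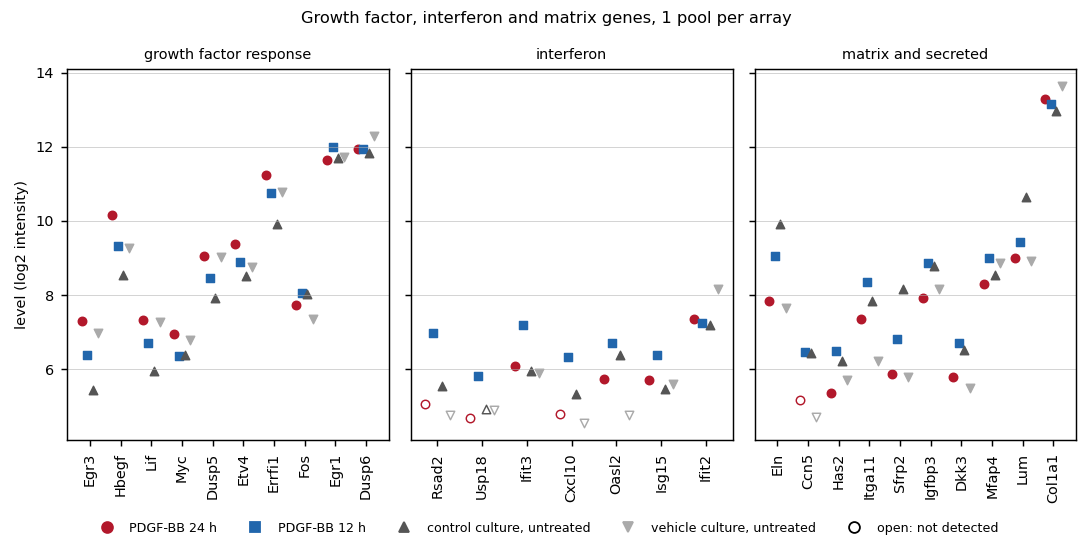
Levels (log2 intensity, vertical) of growth factor response, interferon, and matrix and secreted genes on 4 culture arrays, 1 pool each, with open symbols for genes not detected on that array. Rsad2, Usp18, Ifit3 and Cxcl10 are highest at 12 h, Egr3 and Hbegf are highest at 24 h, and Fos, Egr1 and Dusp6 differ little.

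None of the 6 measured PDGF receptor and ligand genes passed either rule. Pdgfra, the alpha receptor, was 10.95 at 24 h and 11.08 at 12 h, with 11.61 in the control and 10.21 in the vehicle culture. Pdgfrb, the beta receptor, was 6.13 at 24 h and 6.44 at 12 h (-0.31), with 6.12 in the control and 6.18 in the vehicle culture. Both receptors thus lay slightly lower at 24 h, short of 1.5-fold, with the larger difference in Pdgfrb.

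Of the ligands, Pdgfa was 11.12 at 24 h and 11.41 at 12 h (-0.29), Pdgfc 8.38 at 24 h and 8.39 at 12 h, and Pdgfb, which encodes the chain that was added as protein, 7.82 at 24 h and 7.62 at 12 h (0.20). Pdgfrl, a gene with a receptor-like extracellular domain, was 6.23 at 24 h and 6.68 at 12 h (-0.45). The list's median was -0.21, with 1 of 6 above 0, and the median was -0.44 for the vehicle minus the control culture.

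Immediate-early genes were mostly level. None of 17 measured passed 2-fold, 2 passed 1.5-fold higher, beside 1.03% of all measured genes, and the median was 0.10. Egr3, a zinc finger factor induced by growth factors, was 7.31 at 24 h and 6.37 at 12 h (0.93), with 5.45 in the control and 6.97 in the vehicle culture. Myc, which drives growth and cell cycle entry, was 6.95 at 24 h and 6.35 at 12 h (0.60). For both the 24 h pool was the highest of the 4 cultures.

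Fos was 7.72 at 24 h and 8.06 at 12 h (-0.34), and Egr1 was 11.65 at 24 h and 11.99 at 12 h (-0.33), so the best known early genes lay on the other side of 0 at these times. Hbegf, a membrane-anchored ligand of the EGF receptor, was 10.15 at 24 h and 9.32 at 12 h (0.84), with 8.56 in the control and 9.27 in the vehicle culture. These 3 genes were chosen after their values were seen.

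Of 14 measured genes of ERK feedback none was past 2-fold, 10 lay above 0, beside 47.5% of all measured genes, and the median was 0.185. For the vehicle minus the control culture the median was 0.18. Dusp5, a nuclear phosphatase of ERK, was 9.06 at 24 h and 8.47 at 12 h (0.59), which passed 1.5-fold, with 7.92 in the control and 9.03 in the vehicle culture. Spred2, an inhibitor of Raf activation, was 5.82 at 24 h and 5.30 at 12 h (0.52). Errfi1, which inhibits the EGF receptor, and the ETS factor Etv4 differed by 0.49 and 0.50. Dusp6, the cytoplasmic ERK phosphatase, was 11.94 at 24 h and 11.93 at 12 h, so the family did not move as one. Errfi1, Etv4 and Dusp6 were chosen after their values were seen.

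Genes of mitosis leaned higher by small amounts. In the list of G2/M and mitosis 20 of 21 measured genes lay above 0, against 47.5% of all measured genes, and the median was 0.21. None was past 2-fold. For the vehicle minus the control culture the same genes had a median of 0.27, so the untreated pools differed by as much. Cdc25c, the phosphatase that activates Cdk1, was 6.79 at 24 h and 6.08 at 12 h (0.70), but its other probe differed by -0.06. Pttg1, securin, was the exception, at 5.24 and not detected at 24 h and 5.87 at 12 h (-0.64). Birc5, survivin, and the kinase Aurka both differed by 0.49, and they were chosen after their values were seen.

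The genes of G1/S and DNA replication were nearer to 0, with 20 of 31 above 0 and a median of 0.05. Gins1 and Mcm7, parts of the replicative helicase, differed by 0.30 and 0.26. Among 13 measured inhibitors of cyclin-dependent kinases and growth arrest genes 4 lay above 0, none was past 1.5-fold, and the median was -0.30. For the vehicle minus the control culture the median was 0.07. Cdkn2a, which encodes the inhibitor p16 and the protein ARF, was 7.43 at 24 h and 7.85 at 12 h (-0.42), with other probes at -0.63 and -0.66. Ccng2, a cyclin of arrested cells, was 5.83 at 24 h and 6.21 at 12 h (-0.39).

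The metabolic lists held no call. Of 15 measured genes of cholesterol synthesis and uptake 12 lay above 0, with a median of 0.21, led by Nsdhl at 8.43 at 24 h and 8.06 at 12 h (0.37) and Cyp51 at 9.18 at 24 h and 8.88 at 12 h (0.30). For the vehicle minus the control culture the median of these 15 genes was -0.08. The median was 0.09 for 19 genes of glycolysis and hypoxia response, where Pdk1 (-0.35) and Ankrd37 (-0.32) differed most. It was 0.06 for 14 genes of ribosome biogenesis, with Ncl, nucleolin, at 0.27 and Gnl3, nucleostemin, at 0.26. In the list of ER stress and amino acid response the median of 22 genes was -0.09, with Sesn2, a stress-induced inhibitor of mTORC1 signalling, at -0.57 and Ddit3, the factor CHOP, at -0.52.

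Of 11 clock genes none passed 2-fold. Cry2, a repressor of the clock, was 6.91 at 24 h and 6.31 at 12 h (0.60), and Bhlhe40, another repressor, was 9.53 at 24 h and 8.96 at 12 h (0.57). Oxidant response genes had a median of -0.05 over 13 genes, with Sod2 at -0.39 and Cat, catalase, at -0.34. The 13 reference genes, which serve as a check on scaling, had a median of -0.01, and Gapdh differed most of them, by 0.25.

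**Figure D4:**
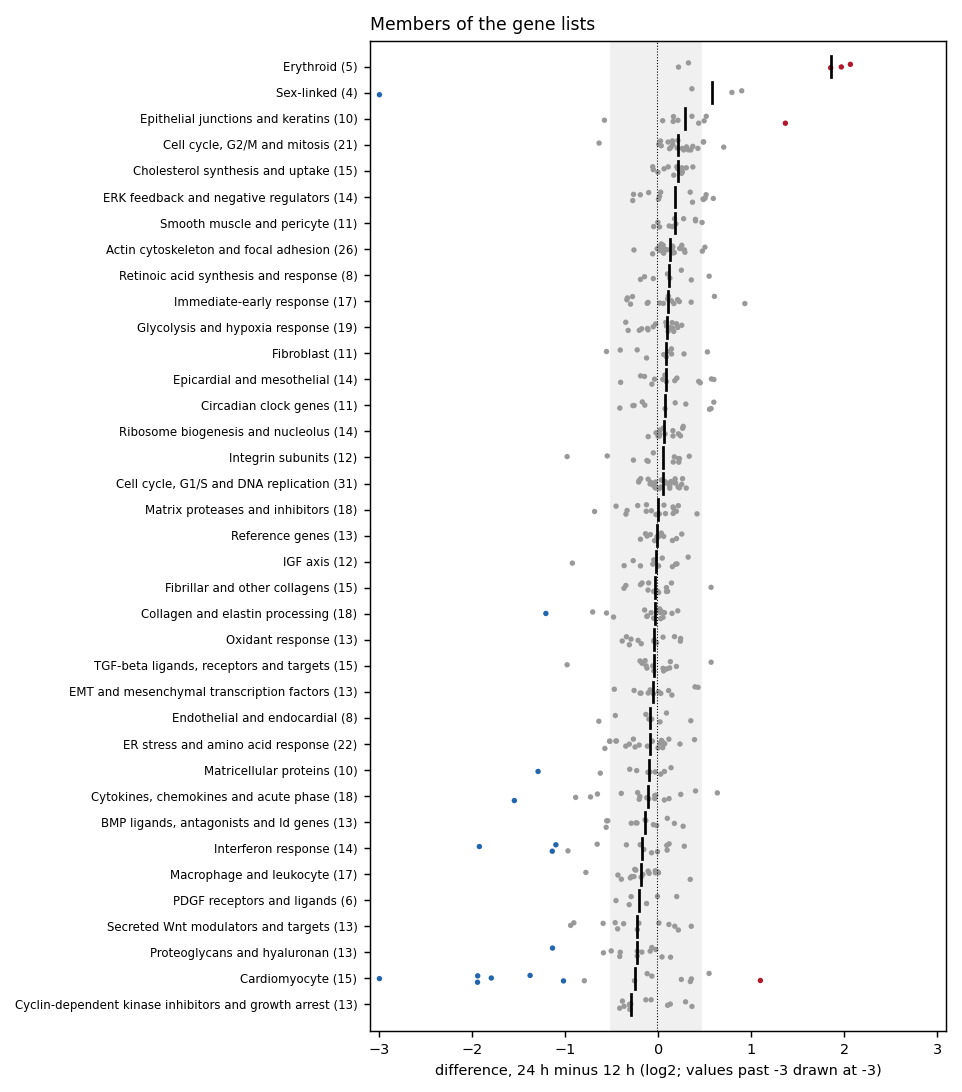
Difference between 24 h and 12 h of PDGF-BB (horizontal, log2) for each measured member of 37 gene lists, with the number measured in brackets and the median as a black bar. Red and blue points passed the 2-fold rule, the grey band holds 95% of all measured genes (-0.51 to 0.46), values past -3 are drawn at -3, and the erythroid median stands farthest out at 1.85.

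Most measured genes of the epicardium were detected on both arrays, with Tbx18 not detected at 12 h. Of the 14 measured genes of the epicardial and mesothelial list all 14 were detected at 24 h and 13 at 12 h. The mesothelial uroplakins Upk3b (12.93 at 24 h and 12.84 at 12 h) and Upk1b (12.29 at 24 h and 12.22 at 12 h) were detected on both, and they were chosen after their values were seen. No gene of the list was past 2-fold, and its median was 0.08.

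Tcf21, a factor of epicardial and fibroblast precursors, was 12.66 at 24 h and 13.06 at 12 h (-0.40). Tbx18, an epicardial T-box factor, was 5.33 at 24 h and 4.76, not detected, at 12 h (0.57). Aldh1a2, the retinoic acid synthase of the epicardium, was 7.56 at 24 h and 7.70 at 12 h (-0.15), and Krt19, a keratin of simple epithelia, 5.99 at 24 h and 5.39 at 12 h (0.60). Retinoic acid genes had a median of 0.11 over 8 genes, with Aldh1a1 at 9.13 at 24 h and 8.58 at 12 h (0.55). Wt1 is not analysed here.

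The EMT factors Snai1, Snai2 and Twist1 were near level. None of 13 measured EMT and mesenchymal transcription factors was past 1.5-fold, and their median was -0.05. Foxc2 differed most of them, by -0.47. Snai1 was 7.16 at 24 h and 7.05 at 12 h, Snai2 7.08 at 24 h and 7.17 at 12 h, and Twist1 8.56 in both. Sox9, a factor of epicardial invasion and of cartilage, was 10.999 at 24 h and 10.57 at 12 h (0.43), with its other probe at 0.34, against 9.45 in the control and 11.18 in the vehicle culture.

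On the epithelial side, 9 of 10 measured junction and keratin genes lay above 0, beside 47.5% of all measured genes, with a median of 0.29. The other 1 differed by -0.58. All 10 were detected at 24 h and 8 at 12 h. Their median was 0.14 for the vehicle minus the control culture. In this list 1 rose past 2-fold, beside 0.115%. Cldn7, a claudin of tight junctions, was 5.90 at 24 h and 4.54, not detected, at 12 h, at least 1.58-fold higher, with 5.09, not detected, in the control and 5.89 in the vehicle culture. Cdh1, E-cadherin, was not detected on either array. Without background correction Cldn7 differed by 0.84, short of 2-fold.

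Genes of mural cells showed no call. Of 11 measured smooth muscle and pericyte genes 9 lay above 0, with a median of 0.18. Their median was 1.01 for the vehicle minus the control culture. Acta2, smooth muscle actin, was 14.95 in both cultures, and Tagln was 11.29 at 24 h and 11.28 at 12 h. Des, desmin, was 11.33 at 24 h and 10.86 at 12 h (0.47), and Myh11, the smooth muscle myosin, was 5.44 at 24 h and 5.04, not detected, at 12 h (0.40).

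In the list of the actin cytoskeleton and focal adhesions 23 of 26 measured genes lay above 0, with a median of 0.12, and the largest were Tln1, talin, at 0.50 and Flnc, filamin C, at 0.47. The median of these 26 genes was 0.29 for the vehicle minus the control culture. Of 11 measured fibroblast genes 7 lay above 0, with a median of 0.09. Ddr2, a collagen receptor, was 5.86 at 24 h and 5.33 at 12 h (0.53).

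Macrophage genes leaned lower. In the macrophage and leukocyte list 15 of 17 measured genes lay below 0, with a median of -0.18, none was past 2-fold, and F13a1, the factor XIII A chain, alone passed 1.5-fold, at 5.21 and not detected at 24 h and 5.99 at 12 h (-0.78). The protease Ctss was 6.14 at 24 h and 6.57 at 12 h (-0.43). Of the 19 members with a named probe 16 were detected at 24 h, 17 at 12 h, 18 in the control and 16 in the vehicle culture, with Lyve1 detected on none of the 4. Their summed linear level was 46267 at 24 h and 53483 at 12 h, against 59618 in the control and 23623 in the vehicle culture. The 17 measured genes had a median of -1.08 for the vehicle minus the control culture.

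Beyond that list Vsig4, a complement receptor of tissue macrophages, was called lower, at 7.19 at 24 h and 8.26 at 12 h (-1.06), with 8.71 in the control and not detected in the vehicle culture (4.54). Apoc1, an apolipoprotein made by macrophages and liver, was 6.06 at 24 h and 7.53 at 12 h (-1.47), with 7.39 in the control and 6.36 in the vehicle culture, and its other probe differed by -1.48. Apoe, of the same gene cluster, was 10.47 at 24 h and 11.38 at 12 h (-0.91). Vsig4 and Apoe were chosen after their values were seen. The part of the macrophage content of the pools in these differences was not tested. Of 8 measured endothelial genes, all 8 detected on both arrays, none was past 2-fold. Pecam1, Cdh5 and Kdr, which define endothelium, were not detected on either array. Emcn, endomucin, was 6.44 at 24 h and 7.08 at 12 h (-0.64), and Tek, the angiopoietin receptor, 6.88 at 24 h and 7.34 at 12 h (-0.46). No gene of the neural list was detected on either array.

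The remaining called genes belong to none of these groups. Of those higher at 24 h, Cstdc4, of the cystatin family of protease inhibitors, was 7.13 at 24 h and 6.0 at 12 h (1.13), with 6.98 in the control. Tm4sf20, a membrane-spanning protein, was 6.03 at 24 h and 4.93, not detected, at 12 h, at least 1.71-fold higher, and not detected in either untreated culture. Cptp, a carrier of ceramide phosphate, and Ap3b2, an adaptor subunit of neural vesicles, were at least 1.13-fold and 1.31-fold higher, since neither was detected at 12 h.

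Of those lower, Slc38a5, an amino acid transporter, was 4.87 and not detected at 24 h and 6.14 at 12 h, at least 1.82-fold lower. Ephb1, a receptor of ephrins, was 5.57 at 24 h and 6.59 at 12 h (-1.02), with 7.77 in the control and not detected in the vehicle culture. Serpina3f, a protease inhibitor, was at least 1.82-fold lower, and Ppp2r2b, Enox1 and Zcchc18 had bounds of 1.37-fold, 1.31-fold and 1.32-fold, all not detected at 24 h. Slc38a5, Ephb1, Serpina3f, Ppp2r2b, Enox1 and Zcchc18 were chosen after their values were seen. Without background correction none of the genes of this group, higher or lower, stayed past 2-fold, and neither did Vsig4 (-0.91). The bounds show how little above the detection limit most of these genes stood.

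**Figure D5:**
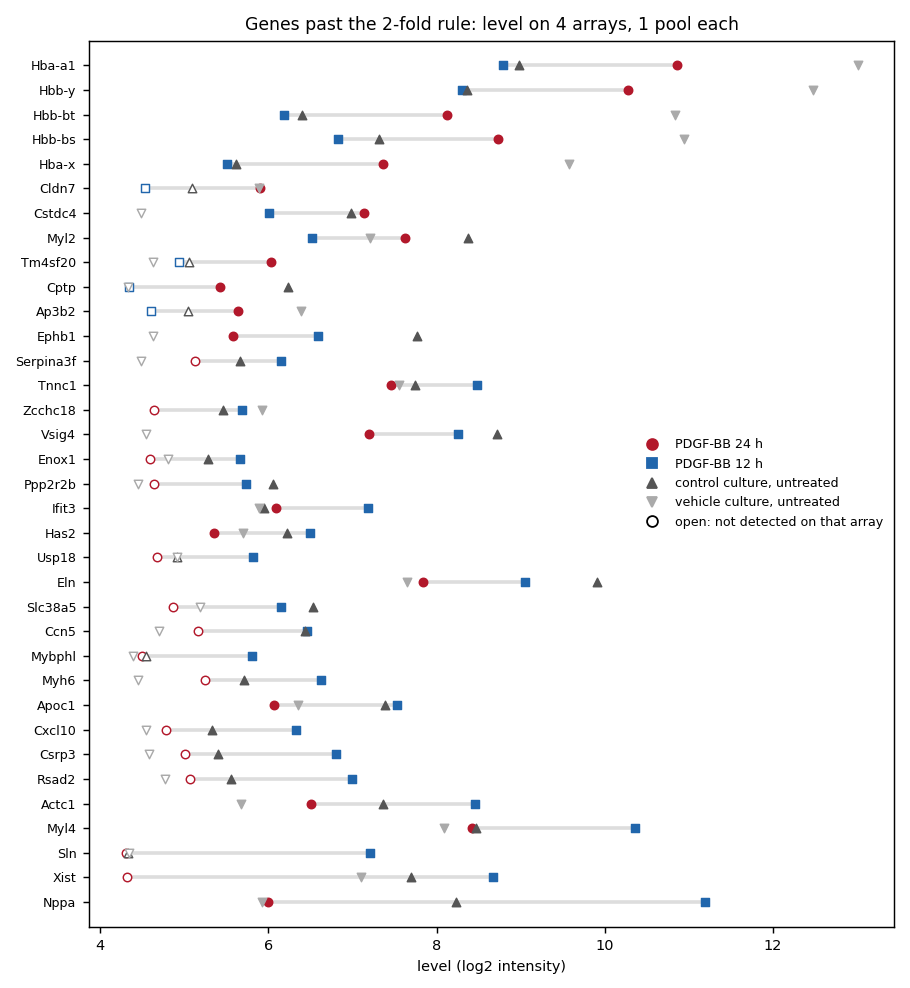
Levels (log2 intensity, horizontal) of the 35 genes past the 2-fold rule at 24 h (red), 12 h (blue) and in the control and vehicle cultures (grey), 1 pool each, with a bar joining 24 h and 12 h and open symbols for genes not detected. Genes run from the highest difference (Hba-a1, 2.07) to the lowest (Nppa, -5.19), and 14 of the 24 lower genes are open at 24 h.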

How the data were processed

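RNA from pools of at least 3 cultures was hybridized to Illumina mouse arrays, 1 array per pool. Per the submitters' processing notes the authors used BeadStudio 3.3, and the deposited table holds an intensity without normalization and the p-value of detection for 45281 probes. The deposited detection p columns share a single name and were paired with the intensity column beside them, which their rank correlations (-0.98 to -0.99) bear out. The authors' processed values are a deposited linear intensity, normalized in 2 sets of 4 arrays, by a method not given in the sources used here. Both PDGF-BB arrays lie in the same set, and these values serve as an alternative.

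The deposited raw intensities were corrected with limma 3.58.1 in R 4.3.3 (neqc, background from the detection p-values, offset 16, quantile normalization over all 8 arrays) and put on the log2 scale. A named gene took its probe with the highest mean level. The table used names a single gene for 34885 probes, several for 18 and none for 10378. With 1 array a side no test was possible, so genes were called by size (at least 2-fold, detection p under 0.01 on the brighter array), and precision is limited by the number of arrays. A trial run on artificial values was also made. Its result is not given here, so nothing is concluded from it for calls near 2-fold or near the detection limit. The comparison, the members and the 38 gene lists were chosen with earlier results of these data known. Named are up to 12 called genes per direction with the largest difference, up to 6 with the highest level, up to 4 called members per list or else up to 2 with the largest difference, and a panel of PDGF, EMT and epicardial genes. Clone-like names are left out, and genes named beyond this rule are marked, other than those given only as not detected. Promoter windows are those of RefSeq. Alternatives were other background, normalization, detection, probe and size rules. Tables used Python with numpy, pandas and scipy, and figures matplotlib.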

Additional observations from a re-analysis of the deposited data

How the results depend on the processing

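All 35 called genes kept their direction under each alternative, except that asking for detection on both arrays left 17 of them, which kept it too. The alternatives reuse the same pair of arrays on which these genes were selected, so a change of direction was unlikely from the start. The detection and size rules leave each difference unchanged. Nothing is concluded from the kept direction. Some medians near 0 changed sign: those of collagens, collagen and elastin processing, proteases, IGF axis and reference genes with median centring, of clock genes at a detection p of 0.05, and of integrins and TGF-beta genes with the mean over probes. The 11 genes higher and 24 lower at 24 h became 5 and 9 both without background correction and with an offset of 50, 5 and 10 with the authors' processed values, 7 and 10 where detection on both arrays was asked, 98 and 161 at 1.5-fold, and 5 and 7 at 3-fold. Every gene of the smaller counts is among the 35. The 5 higher at no background correction are the globins, and the 9 lower are Nppa, Xist, Sln, Myl4, Actc1, Rsad2, Csrp3, Apoc1 and Eln. Normalization over the 4 arrays of the submitters' set with both PDGF-BB arrays gave 13 and 30. That set also holds the control and receptor knockout cultures, and not the vehicle culture. Normalization over the compared pair gave 12 and 24, and median centring 12 and 25. The erythroid median of 1.85 was 1.32 without background correction, 1.32 with an offset of 50, 1.39 with the authors' values and 1.12 at a detection p of 0.05. The sex-linked median of 0.58 was 0.33, 0.32 and 0.35 under the first 3 of these, and that of the kinase inhibitors was -0.13 at a detection p of 0.05. The difference between the untreated cultures, 1031 genes at 2-fold, became 536 without background correction, 516 with an offset of 50, 678 with detection on both arrays, 3006 at 1.5-fold and 251 at 3-fold. The smaller differences without background correction lie in its construction, since background left in both levels draws them together. No paired analysis was possible because each group has 1 array, and no array could be left out for the same reason. Genes near the detection limit (14 of 24 lower, 4 of 11 higher) have only a bound.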

Other observations

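Probes without a single gene name were counted apart. Of 2167 measured at 24 h or 12 h, 2 were higher and 3 lower past 2-fold (0.231%), against 0.366% of the named genes.

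Several genes outside the lists lay between 1.5-fold and 2-fold, and those given here were chosen after their values were seen. Lbp, which carries bacterial lipopolysaccharide, was 6.13 at 24 h and 5.21, not detected, at 12 h (0.93), and Pdk4, the kinase that inhibits pyruvate dehydrogenase, was 6.96 at 24 h and 6.13 at 12 h (0.83). Cd200, a ligand that restrains macrophages, was 10.90 at 24 h and 10.08 at 12 h (0.82), with 10.35 in the control and 6.48 in the vehicle culture. Nes, the intermediate filament nestin, was 10.18 at 24 h and 9.57 at 12 h (0.61), above the control (8.96) and vehicle (9.15) cultures. Scg2, a granin of secretory granules, was 6.78 at 24 h and 7.73 at 12 h (-0.95), and Ptn, the growth factor pleiotrophin, was 9.44 at 24 h and 10.15 at 12 h (-0.71). Of all genes past 1.5-fold, 84 of 98 higher and 129 of 161 lower ones belong to no list.

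Of 7799 measured genes with a promoter window, the share with a match on either strand was 13.8% for the cell cycle homology region (TTTGAA), 4.78% for E2F (TTTGGCGC, TTTCCCGC, TTTGCCGC or TTTCGCGC), 1.28% for the sterol response element (TCACNCCAC), 2.77% for the amino acid response element (TGATGNAA), 12.0% for the E-box (CACGTG) and 29.7% for the hypoxia response element (ACGTG, which every E-box match also holds). In the 161 genes 1.5-fold lower at 24 h, of which 127 have a window, the interferon element was in 16.5%, and in the 77 with a window of the 98 genes 1.5-fold higher it was in 11.7%, against 9.37% of measured genes. In these higher and lower genes the cell cycle homology region was in 14.3% and 14.2%, and E2F in 1.30% and 1.57%. The sterol response element had 0% and 3.94%, and the amino acid response element 6.49% and 3.15%. The E-box had 3.90% and 10.2%, and the hypoxia response element 24.7% and 23.6%. These shares were not tested.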
